A study of Mus musculus with 9 samples.

Results

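The 9 genes described here, Cd79a, Cd79b, Ms4a1, Cd22, Cr2, Fcer2a, Blk, Bank1 and Pax5, encode surface and signalling proteins of B cells and the factor that fixes B cell identity. They were chosen by name, and all 9 were found among the 44806 entries of a table of gene read counts. The table holds 9 libraries of mouse tumours, 3 each from mice given PBS, Lipo-BiTE or Lipo-TriTE, and the libraries of each group are numbered 1 to 3. Every tumour was of MB49, a mouse bladder cancer line, described as overexpressing HER2, an epidermal growth factor receptor family kinase; all groups including PBS share this, and whether the added sequence is human or mouse is not given. BiTE is the usual short name for a bispecific T cell engager, which ties a T cell to a target cell. Neither the labels nor the design text spells out what the TriTE binds. There was no group given a carrier alone, so an effect of a carrier and one of the agent it bears cannot be told apart. Age, sex and strain of the mice are not given. The series text speaks of T cells sorted by CD3, while labels and protocol describe whole tumour tissue, frozen before extraction.

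The count totals ran from 13152783 to 20273548 per library, and levels are given as CPM, the read count scaled for the depth of the library. A count of 3, taken here as the limit that a count of 0 allows, came to 0.145 to 0.236 CPM, which covers counting error only. The 8 epithelial genes examined, keratins and junction proteins, summed to 397.4 to 974.6 CPM per library, so RNA of non-lymphoid cells was present in each one. PBS 2 and PBS 3 resembled each other most among libraries of one group, with a chi-square per degree of freedom of 4.81 against 22.6 to 89.7 for the other 8 pairs. The labels do not say that libraries came from separate animals, so each p-value measures only a spread between samples that may be technical.

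A B cell recognises antigen through a membrane immunoglobulin held by the signalling chains Cd79a and Cd79b. Kinases of the Src family such as Blk phosphorylate these chains, adaptors such as Bank1 pass the signal on, and coreceptors set its strength: the complement receptor Cr2 raises it and the sialic acid-binding Cd22 restrains it. Pax5 is the factor that commits a precursor to the B cell lineage and drives several of the other genes, and B cells can enter tumours together with T cells, alone or in organised lymphoid clusters.

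The upstream sequences of 3 members are shown because these genes represent both patterns found below: Cd22 and Bank1 were the members called higher in Lipo-BiTE as well as in Lipo-TriTE tumours, and Cd79a was called in Lipo-TriTE alone. Each is the 250 bases before the start site in RefSeq on GRCm38.p6, printed 5′ to 3′ along the gene: Cd79a at chr7:24897247-24897496 on the plus strand, Cd22 at chr7:30879029-30879278 on the minus strand and Bank1 at chr3:136326067-136326316 on the minus strand. Capitals mark CCCNNGGG, the core of the site of Ebf1, an early B cell factor.
Cd79a: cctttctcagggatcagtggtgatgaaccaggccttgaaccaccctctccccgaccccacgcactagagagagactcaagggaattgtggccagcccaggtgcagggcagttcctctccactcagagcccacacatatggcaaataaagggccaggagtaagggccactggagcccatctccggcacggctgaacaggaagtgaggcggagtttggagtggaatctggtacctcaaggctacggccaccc
Cd22: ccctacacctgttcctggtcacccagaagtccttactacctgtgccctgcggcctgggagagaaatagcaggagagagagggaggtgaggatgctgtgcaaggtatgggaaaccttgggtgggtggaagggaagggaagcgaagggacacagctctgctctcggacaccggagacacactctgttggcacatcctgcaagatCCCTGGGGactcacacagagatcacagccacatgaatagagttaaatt
Bank1: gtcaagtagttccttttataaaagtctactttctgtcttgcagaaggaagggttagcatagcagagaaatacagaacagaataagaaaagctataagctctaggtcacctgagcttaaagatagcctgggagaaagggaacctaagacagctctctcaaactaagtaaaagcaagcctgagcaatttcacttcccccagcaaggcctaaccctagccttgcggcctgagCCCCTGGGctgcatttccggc
The core began 48 bases before the start in Cd22 and 21 bases before it in Bank1. RefSeq gave 8 such promoters for 6 of the 9 members, and none was matched for Ms4a1, Cd79b and Blk. Of the 8 promoters 2 held the Ebf1 core, against 11.8% of 32851 mouse promoters of the same length. The octamer ATGCAAAT, the site of the Oct factors, stood in 0 of the 8 and in 1.60% of all, and the PU.1-type GAGGAAG in 0 of the 8 and in 10.6% of all. Both strands were searched, and a match is a description of letters, not a bound site. The search was for exact letters, so a site that departs from them would be missed, in Cd79a as in any other promoter. Cd22 and Bank1, the genes with the core, are both printed above, and whether the core goes with either pattern was not tested.

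Lipo-TriTE tumours held far more RNA of all 9 genes than either other group. Against PBS, the members were higher by 13.6-fold for Pax5 to 409-fold for Ms4a1, and against Lipo-BiTE by 6.96-fold for Bank1 to 125-fold for Fcer2a. Lipo-BiTE tumours differed less from PBS tumours: Cd22 rose 12.4-fold and Bank1 8.56-fold, and the other 7 genes did not pass the test. In RNA of whole tissue, more cells of a type and more RNA per cell cannot be told apart.

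In the edgeR quasi-likelihood test over 16596 genes, with Benjamini-Hochberg adjusted p under 0.05, 2 of the 9 members were called higher in Lipo-BiTE against PBS and all 9 in each comparison of Lipo-TriTE, with PBS and with Lipo-BiTE. None was called lower. Of all genes tested, 13.8%, 18.9% and 4.88% were called higher and 3.22%, 14.8% and 5.21% lower in these comparisons, in the order given. The median log2 fold change of the members was 2.16, 7.30 and 5.77, beside −0.023, 0.0032 and −0.013 over all tested genes. Every library of the first group lay above every library of the second for 4, 9 and 9 members, as it did for 22.7%, 26% and 16.1% of all genes. The comparisons share libraries pairwise and are not independent. Ms4a1, Cr2 and Fcer2a passed the filter on low counts only through the Lipo-TriTE libraries, so they could enter the test only by being high there. Scaling by total counts alone moved the median log2 fold change of all genes to −0.15 in Lipo-BiTE against PBS and to 0.11 between the treatments, and the calls over all genes from 2283 higher and 534 lower to 2079 and 985 in the first of these and from 810 and 865 to 1094 and 457 in the second; the member counts were the same.

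**Figure D1:**
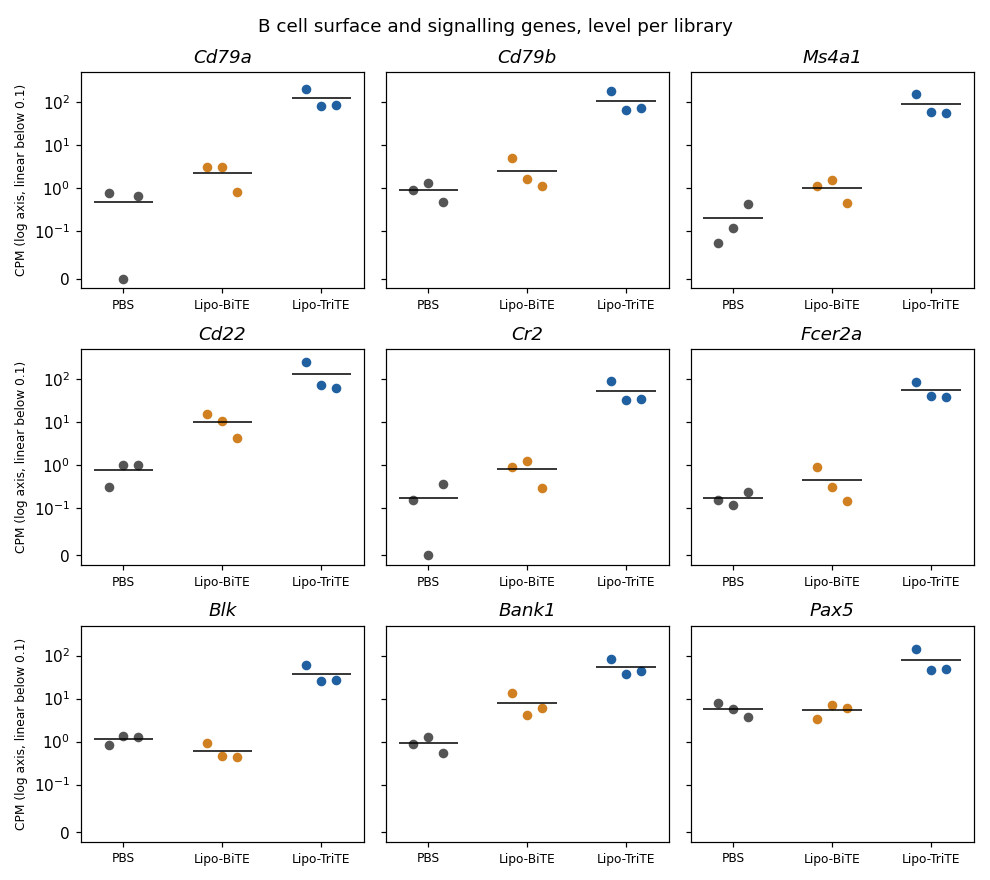
Level of each of the 9 genes in CPM (vertical axis, logarithmic above 0.1 and linear below) in the 3 libraries of each group, left to right by number; points are libraries and lines are group means. All 9 panels show the Lipo-TriTE libraries above the others, from 25.4 CPM (Blk) upwards, and Lipo-TriTE 1 as the highest library.

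The antigen receptor chains were near the limit of detection in PBS tumours and abundant in Lipo-TriTE tumours. Cd79a, on chromosome 7 at 24081439-24086379 in the C57BL/6NJ gene models of the table, encodes the Ig-alpha chain. It stood at 0.741, 0 and 0.652 CPM in PBS 1, 2 and 3, at 2.99, 3.00 and 0.798 CPM in Lipo-BiTE 1, 2 and 3, and at 203.9, 81.9 and 83.7 CPM in Lipo-TriTE 1, 2 and 3. These are 10, 0 and 11 reads in the PBS libraries, and the 0 of PBS 2 allows up to 0.177 CPM. The groups did not overlap, and Lipo-BiTE 3 lay next to the PBS libraries. Cd79a was 270.2-fold higher in Lipo-TriTE than in PBS (log2 8.08, SE 0.76, edgeR adjusted p = 7.22e-05) and 54.6-fold higher than in Lipo-BiTE (log2 5.77, SE 0.64, adjusted p = 0.00138). Leaving out PBS 2 gave 177-fold for the first of these (adjusted p = 0.000348). Its difference between Lipo-BiTE and PBS was 4.95-fold and missed the threshold (log2 2.31, SE 0.81, adjusted p = 0.079); without Lipo-BiTE 3 it passed (6.50-fold, adjusted p = 0.0237), and without PBS 2 it was 3.19-fold (adjusted p = 0.177).

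Cd79b, the Ig-beta chain (chromosome 11, 112954881-112958302), stood at 0.889, 1.30 and 0.474 CPM in the PBS libraries, at 4.88, 1.58 and 1.09 CPM in the Lipo-BiTE libraries and at 182.2, 65.8 and 71.3 CPM in the Lipo-TriTE libraries. Lipo-BiTE 3 lay below PBS 2, so these groups overlapped, while every Lipo-TriTE library was above both. Cd79b rose 119-fold in Lipo-TriTE against PBS (log2 6.90, SE 0.67, edgeR adjusted p = 8.42e-05; 77.4-fold without Lipo-TriTE 1) and 42.6-fold against Lipo-BiTE (log2 5.41, SE 0.61, adjusted p = 0.00142; 28.01-fold without Lipo-TriTE 1 and 78.3-fold without Lipo-BiTE 1). Lipo-BiTE against PBS gave log2 1.48 with an SE of 0.69 (adjusted p = 0.167), and log2 0.58 without Lipo-BiTE 1 (adjusted p = 0.667). Per kilobase of gene length, Cd79a and Cd79b were the highest members in each Lipo-TriTE library, at means of 84.6 and 74.4 CPM per kb.

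The surface proteins split into one gene that already differed in Lipo-BiTE tumours, Cd22, and 3 that did not pass there. Cd22 (chromosome 7, 30877839-30893724), the inhibitory lectin of the antigen receptor, stood at 0.296, 1.001 and 1.008 CPM in PBS, at 15.1, 10.3 and 4.28 CPM in Lipo-BiTE and at 243.1, 72.3 and 62.4 CPM in Lipo-TriTE libraries. No groups overlapped, and the lowest Lipo-BiTE library held 59 reads against at most 17 in PBS. Cd22 rose 12.4-fold in Lipo-BiTE against PBS (log2 3.63, SE 0.73, edgeR adjusted p = 0.00712), 158-fold in Lipo-TriTE against PBS (log2 7.30, SE 0.77, adjusted p = 0.000121; 85.2-fold without Lipo-TriTE 1) and 12.8-fold in Lipo-TriTE against Lipo-BiTE (log2 3.67, SE 0.61, adjusted p = 0.00744; 6.96-fold without Lipo-TriTE 1). With no filter on low counts the first of these calls was lost (adjusted p = 0.0726).

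Ms4a1 (chromosome 19, 9020807-9039416) encodes CD20, the target of depleting antibodies against B cells. Its level was 0.0741, 0.118 and 0.415 CPM in PBS, 1.10, 1.501 and 0.435 CPM in Lipo-BiTE and 155, 58.1 and 53.9 CPM in Lipo-TriTE libraries. The PBS values rest on 1, 2 and 7 reads, and Lipo-BiTE 3, with 6 reads, lay just above PBS 3. Against Lipo-BiTE, Ms4a1 was 87.7-fold higher in Lipo-TriTE (log2 6.45, SE 0.58, edgeR adjusted p = 0.000411; 56.0-fold without Lipo-TriTE 1). The 409-fold difference from PBS (log2 8.67, SE 0.69, adjusted p = 3.35e-05) ran from 259-fold without Lipo-TriTE 1 to 843-fold without PBS 3. In Lipo-BiTE against PBS the log2 fold change was 2.22 with an SE of 0.86 (adjusted p = 0.103); it passed without Lipo-TriTE 1 (0.025) and in the DESeq2 Wald test (0.0427), and without PBS 3 it was log2 3.24 (0.0959).

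Cr2 (chromosome 1, 208691087-208732026), the complement receptor also known as CD21, and Fcer2a (chromosome 8, 674580-688632), the low-affinity IgE receptor CD23, are markers by which mature B cell subsets are told apart. Cr2 stood at 0.148, 0 and 0.356 CPM in PBS, 0.866, 1.20 and 0.290 CPM in Lipo-BiTE and 89.5, 31.7 and 33.0 CPM in Lipo-TriTE libraries. Fcer2a stood at 0.148, 0.118 and 0.237 CPM in PBS, 0.866, 0.300 and 0.145 CPM in Lipo-BiTE and 85.5, 39.8 and 38.3 CPM in Lipo-TriTE libraries. For both genes the PBS and Lipo-BiTE libraries overlapped at 0 to 16 reads each, and every Lipo-TriTE library held at least 500. Cr2 was 65.2-fold higher in Lipo-TriTE than in Lipo-BiTE (log2 6.03, SE 0.64, edgeR adjusted p = 0.00113; 41.7-fold without Lipo-TriTE 1). Its 291-fold difference from PBS (adjusted p = 6.98e-05) became 185-fold, 193-fold and 697-fold without Lipo-TriTE 1, PBS 2 and PBS 3. Fcer2a was 125-fold higher in Lipo-TriTE than in Lipo-BiTE (log2 6.96, SE 0.53, adjusted p = 0.000145; 234-fold without Lipo-BiTE 1) and 309-fold higher than in PBS (log2 8.27, SE 0.58, adjusted p = 1.88e-05). Lipo-BiTE against PBS gave log2 2.16 with an SE of 0.96 for Cr2 (adjusted p = 0.148, and 0.027 with no filter) and 1.31 with an SE of 0.82 for Fcer2a (adjusted p = 0.298). The Cr2 value was log2 1.54 without PBS 2 and 3.39 without PBS 3, and the Fcer2a value 0.38 without Lipo-BiTE 1, none of them called (adjusted p = 0.319, 0.126 and 0.858).

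Of the signalling proteins, Bank1 was higher in both treated groups, whereas Blk was called higher in the Lipo-TriTE comparisons and not in Lipo-BiTE against PBS. Bank1 (chromosome 3, 143825953-144108848), a scaffold that binds kinases after receptor ligation, stood at 0.889, 1.30 and 0.534 CPM in PBS, 13.5, 4.20 and 5.88 CPM in Lipo-BiTE and 83.1, 36.9 and 43.6 CPM in Lipo-TriTE libraries. Its groups did not overlap. Bank1 rose 8.56-fold in Lipo-BiTE against PBS (log2 3.10, SE 0.55, edgeR adjusted p = 0.00346; 5.53-fold without Lipo-BiTE 1), 59.6-fold in Lipo-TriTE against PBS (log2 5.90, SE 0.57, adjusted p = 7.66e-05) and 6.96-fold in Lipo-TriTE against Lipo-BiTE (log2 2.80, SE 0.46, adjusted p = 0.00743; 10.6-fold without Lipo-BiTE 1).

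Blk (chromosome 14, 60640515-60685447), a Src family kinase of B cells, stood at 0.815, 1.35 and 1.30 CPM in PBS, 0.945, 0.450 and 0.435 CPM in Lipo-BiTE and 59.9, 25.4 and 26.8 CPM in Lipo-TriTE libraries. Its mean was lower in Lipo-BiTE, at 0.610 ± 0.290 CPM, than in PBS, at 1.16 ± 0.298 CPM (SD, n = 3 each), but Lipo-BiTE 1 lay above PBS 1 and the difference was not called (log2 −0.94, SE 0.51, edgeR adjusted p = 0.227). Blk rose 31.8-fold in Lipo-TriTE against PBS (log2 4.99, SE 0.43, adjusted p = 3.81e-05) and 61.0-fold against Lipo-BiTE (log2 5.93, SE 0.47, adjusted p = 0.000145).

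Pax5 (chromosome 4, 44326582-44525409) had 64 to 105 reads in the PBS libraries, where no other member had more than 23. It stood at 7.78, 5.71 and 3.79 CPM in PBS, 3.31, 6.90 and 6.02 CPM in Lipo-BiTE and 139, 46.0 and 48.0 CPM in Lipo-TriTE libraries. PBS and Lipo-BiTE libraries overlapped (log2 −0.08, SE 0.48, edgeR adjusted p = 0.933), and every Lipo-TriTE library was above them. Pax5 rose 13.6-fold in Lipo-TriTE against PBS (log2 3.76, SE 0.49, adjusted p = 0.000414; 8.27-fold without Lipo-TriTE 1) and 14.3-fold against Lipo-BiTE (log2 3.84, SE 0.50, adjusted p = 0.00257; 8.78-fold without Lipo-TriTE 1). Whether reads were counted by strand is not given in the sources used here, so reads of a transcript on the opposite strand would be included.

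**Figure D2:**
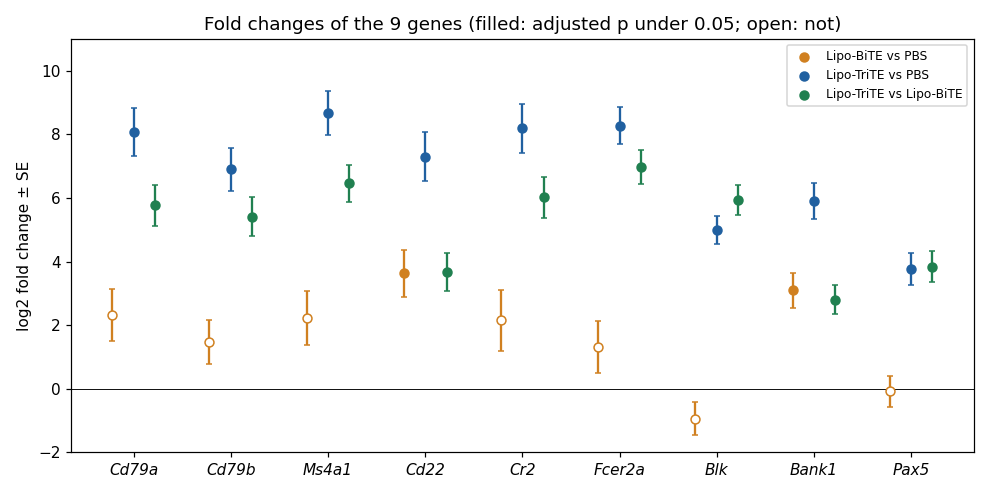
Log2 fold change with its SE (vertical axis) for each gene in 3 comparisons of 3 libraries with 3; filled points passed an adjusted p of 0.05 in the edgeR test and open points did not. Cd22 and Bank1 are the filled points of Lipo-BiTE against PBS, and all points of both Lipo-TriTE comparisons are filled, from 2.80 to 8.67.

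The Lipo-TriTE libraries were not alike in amount. Lipo-TriTE 1 held 2.06 times (Bank1) to 3.61 times (Cd22) the mean of Lipo-TriTE 2 and 3, with a median of 2.66 over the members, against a median of 0.983 over all tested genes. Summed over the 9 genes, the level was 1242, 457.8 and 461 CPM in Lipo-TriTE 1, 2 and 3, 43.5, 29.4 and 19.4 CPM in the Lipo-BiTE libraries and 11.8, 10.9 and 8.77 CPM in the PBS libraries. Lipo-TriTE 1 also held the most summed T cell marker RNA, at 2181 CPM against 1215 CPM in the lowest Lipo-TriTE library. All 9 members stayed past the threshold in both Lipo-TriTE comparisons without Lipo-TriTE 1.

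The proportions among the members varied less between the Lipo-TriTE libraries than the amounts did. On the scale of CPM per kb, Cd79a made up 31.8% to 33.5% of the members' summed level in Lipo-TriTE, 13.8% to 28.4% in Lipo-BiTE and 0% to 20.2% in PBS libraries. Cd79b made up 27.4% to 29.1%, 15.2% to 29.1% and 14.9% to 35.6% in the same order. Cd22 made up 25.3% ± 3.44 of the sum after Lipo-BiTE, 8.99% ± 1.91 after Lipo-TriTE and 6.41% ± 3.64 after PBS (SD, n = 3 each). Within Lipo-TriTE the Cd22 share was 11.1%, 8.62% and 7.29% in libraries 1, 2 and 3. Bank1 made up 14.3% ± 6.08, 2.95% ± 0.442 and 4.86% ± 1.82 in that order of groups. In both cases every Lipo-BiTE library had a larger share than any library of the other groups. Pax5 had its largest share in PBS, at 26.1% ± 7.21, beside 10.4% ± 6.97 in Lipo-BiTE tumours and 3.28% ± 0.258 after Lipo-TriTE, and so had Blk, at 19.3% ± 5.89 beside 3.399% ± 0.966 and 5.98% ± 0.424. Fcer2a had its largest share in Lipo-TriTE, at 9.74% ± 0.976. Shares in PBS rest on 0 to 105 reads a gene and those in Lipo-TriTE on 401 to 5017, and they were not tested.

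**Figure D3:**
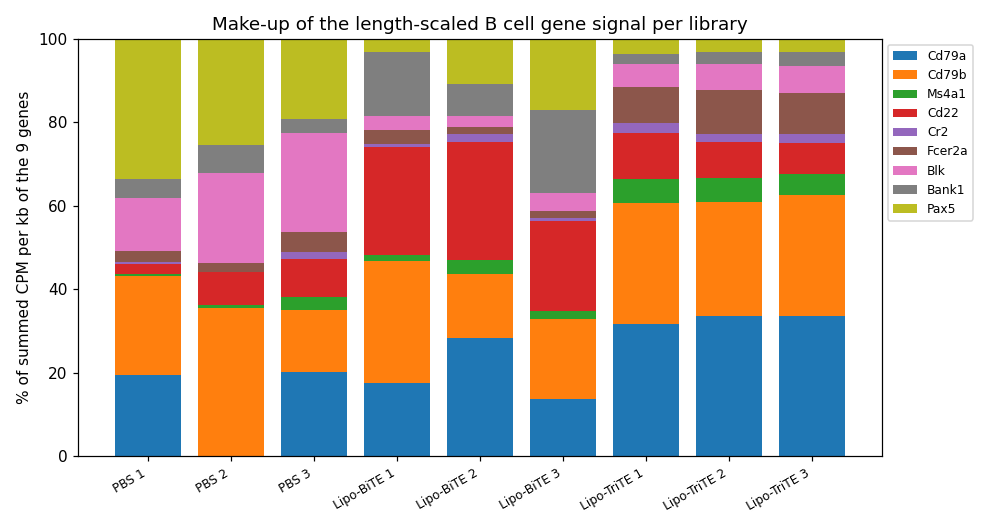
Share of each gene (vertical axis, percent) in the summed CPM per kb of the 9 genes, 1 bar per library. The Lipo-TriTE bars have Cd79a at 31.8% to 33.5% and Cd22 at 7.29% to 11.1%, the Lipo-BiTE bars have the widest Cd22 segment, and the PBS bars the widest Pax5 and Blk segments.

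By level per kb in Lipo-TriTE, Cd79a and Cd79b were followed by Cd22 at 25.2 and Fcer2a at 24.3, Blk at 15.1 and Ms4a1 at 14.5, Pax5 at 8.79 and Bank1 at 7.28, and Cr2 at 5.66 CPM per kb. Cd79a stood above Cd79b in 3 of 3 libraries. The order within the next pairs was not the same in all libraries: Cd22 exceeded Fcer2a in 1 of 3, Blk exceeded Ms4a1 in 2 of 3 and Pax5 exceeded Bank1 in 2 of 3. In Lipo-BiTE the order was led by Cd22 at 1.98, Cd79b at 1.76 and Cd79a at 1.55 CPM per kb, and in PBS by Pax5 at 0.651, Cd79b at 0.619 and Blk at 0.468 CPM per kb. In these groups most neighbours changed places in 1 of 3 libraries.

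T cell genes rose as well, and the B cell genes were therefore set against them. All 14 T cell markers tested were called higher in each of the 3 comparisons, with median log2 fold changes of 2.53, 4.76 and 2.06, and their summed level was 55.2 to 69.4 CPM for PBS, 269 to 512 CPM for Lipo-BiTE and 1215 to 2181 CPM for Lipo-TriTE libraries. The summed CPM of the 9 members divided by that of Cd3e, Cd3d and Cd3g, the CD3 chains of the T cell receptor, was 0.723, 0.771 and 0.715 for the PBS libraries, 0.459, 0.409 and 0.406 for those of Lipo-BiTE, and 3.13, 1.96 and 1.67 for those of Lipo-TriTE. With this denominator the ratio was lowest in Lipo-BiTE and highest in Lipo-TriTE, with no overlap. Over the summed CPM of Trbc1 and Trbc2, the constant regions of the T cell receptor beta chain, it was 2.30, 1.83 and 2.43 for the PBS libraries, 0.792, 0.733 and 0.669 for those of Lipo-BiTE and 4.60, 2.86 and 2.05 for those of Lipo-TriTE. Lipo-BiTE was again lowest, but PBS and Lipo-TriTE overlapped, Lipo-TriTE 3 lying below PBS 1 and PBS 3. Pax5 held most of the PBS reads, and a ratio without it, chosen after its values were seen, came to 0.339 ± 0.0836 for PBS, 0.339 ± 0.0755 for Lipo-BiTE and 2.01 ± 0.679 for Lipo-TriTE (SD, n = 3 each). Without Pax5 and over the CD3 chains, the PBS and Lipo-BiTE ranges overlapped, at 0.245 to 0.406 and 0.280 to 0.424, and the Lipo-TriTE libraries remained above both. These ratios are descriptions, and no test was made of them.

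**Figure D4:**
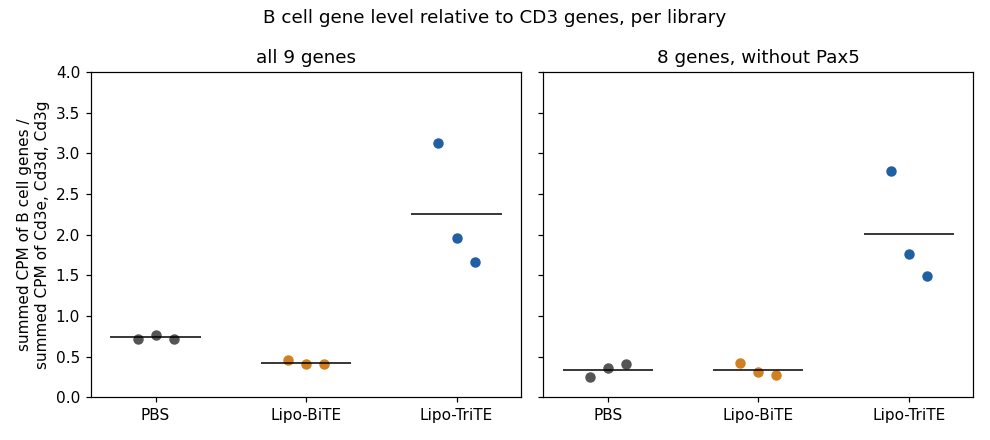
Summed CPM of the B cell genes over summed CPM of Cd3e, Cd3d and Cd3g (vertical axis) per library, with all 9 genes on the left and without Pax5 on the right; lines are means. Lipo-TriTE libraries lie at 1.49 or more in both panels, and the gap between PBS and Lipo-BiTE on the left is absent on the right.

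Other genes of the B cell receptor pathway differed less evenly, and many of them also act in other blood cells. Of 17 tested genes of the receptor and its proximal signalling, 11 were higher in Lipo-BiTE against PBS, 15 for Lipo-TriTE set against PBS and 5 when the treatments were compared, with none lower and medians of log2 2.44, 3.44 and 0.56. Among the 5 were the immunoglobulin chains Ighm at 15.4-fold, Igkc at 102-fold and Ighd at 63.4-fold and the adaptor Blnk at 5.92-fold (edgeR adjusted p = 4.69e-05, 0.000386, 0.00142 and 0.00699). Syk and Btk, kinases that myeloid cells also use, were at log2 −0.31 and 0.41 there (adjusted p = 0.706 and 0.526), although both rose in Lipo-BiTE against PBS, at 15.2-fold and 8.20-fold. With no filter on low counts 8 genes were called in place of 5.

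Of 19 other surface proteins and coreceptors, 12, 18 and 11 were higher in the same order and none lower, with medians of log2 2.61, 4.67 and 2.85. The IgM Fc receptor Fcmr rose 77.3-fold in Lipo-TriTE against Lipo-BiTE and Fcrla 24.5-fold (edgeR adjusted p = 0.00119 and 0.000596). Fcmr, Fcrl5 and Ccr6, all among the 11, could not have passed the filter on low counts without the Lipo-TriTE libraries. Ly6d, which the plasmacytoid dendritic list also holds, rose 26.8-fold. The count of 11 was 4 without Lipo-BiTE 2. Among 15 B cell transcription factors, 10, 14 and 11 were higher and none lower, with medians of log2 1.74, 4.31 and 2.10. Spib rose 26.0-fold, Myb 7.44-fold, Mef2c 4.88-fold and Bach2, which restrains plasma cell formation, 7.17-fold in Lipo-TriTE against Lipo-BiTE (adjusted p = 0.00145, 0.00207, 0.00257 and 0.00285). Ebf1 rose 29.6-fold there (adjusted p = 0.00239), and in Lipo-BiTE against PBS it was at log2 −1.28 and not called (adjusted p = 0.206). Tcf3, Pou2af1, Spib and Bach2 were the other factors not called in Lipo-BiTE against PBS (edgeR adjusted p = 0.712, 0.16, 0.958 and 0.0562). Spi1 and Ikzf1 rose most of the 10 called in that comparison, 12.5-fold and 9.14-fold. Between the treatments the 4 not called were Spi1, Tcf3, Bcl6 and Ikzf1, at 0.647-fold, 0.756-fold, 0.979-fold and 2.38-fold.

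**Figure D5:**
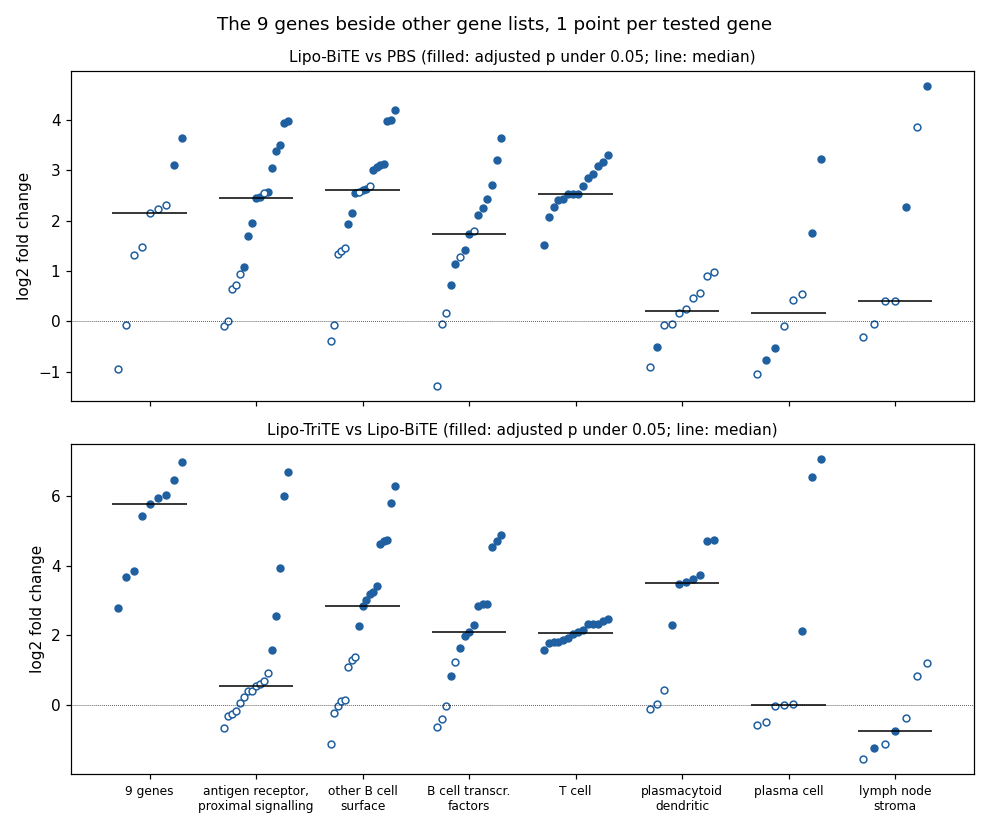
Log2 fold change (vertical axis) of each tested gene of 8 lists in Lipo-BiTE against PBS (top) and Lipo-TriTE against Lipo-BiTE (bottom); filled points passed an adjusted p of 0.05 and lines are medians. In the lower panel the 9 genes have a median of 5.77, the T cell genes lie close to their median of 2.06, and the receptor and proximal signalling genes have a median of 0.56.

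Markers of other cells that can carry B cell transcripts were read beside these results. Of 10 genes of plasmacytoid dendritic cells, 0, 7 and 7 were higher and 1, 1 and 0 lower in the 3 comparisons, and their summed level was 383 to 418 CPM for PBS, 369 to 389 CPM for Lipo-BiTE and 548 to 875 CPM for Lipo-TriTE libraries. Siglech, the lectin of these cells, rose 12.2-fold and Ccr9, a homing receptor, 11.5-fold in Lipo-TriTE against Lipo-BiTE (edgeR adjusted p = 0.000165 and 0.000131). The 7 include Spib and Ly6d, which the B cell lists also hold. Tcf4 was the gene called lower, at log2 −0.50 and −0.48 in Lipo-BiTE and Lipo-TriTE against PBS (adjusted p = 0.0257 and 0.0181). Between the treatments Tcf4, Bst2 and Runx2 were at 1.02-fold, 1.35-fold and 0.926-fold and not called. The summed level was thus higher where the members were highest, and the list's part in the member values was not tested. Plasma cell genes were higher in 2, 5 and 3 of 8 tested cases and lower in 2, 2 and 0, with medians of log2 0.17, 1.93 and 0.016. In Lipo-TriTE against Lipo-BiTE the 3 were Mzb1 at 133-fold, Jchain at 92.8-fold and Derl3 at 4.39-fold (adjusted p = 0.00113, 8.08e-05 and 0.00998), while Sdc1, Xbp1, Prdm1, Fkbp11 and Creld2 were at 0.677-fold to 1.02-fold and not called. Mzb1, at most at 0.363 CPM in Lipo-BiTE, could not have passed the filter on low counts without the Lipo-TriTE libraries. Sdc1, the surface proteoglycan of plasma cells and epithelia, and Fkbp11 were the genes called lower against PBS, a count that ran from 0 to 2 in Lipo-BiTE and from 1 to 2 in Lipo-TriTE over the alternatives. The plasma cell list summed to 477.5 to 516.9 CPM for PBS, 601 to 1291 CPM for Lipo-BiTE and 857 to 1025 CPM for Lipo-TriTE libraries. Xbp1 had means of 182, 613 and 415 CPM in PBS, Lipo-BiTE and Lipo-TriTE, and Sdc1 218, 150 and 107 CPM. These 2 genes made up much of the sum in every group. Jchain had means of 2.09, 2.78 and 258 CPM and Mzb1 0.568, 0.247 and 34.4 CPM in the same order.

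Genes of follicular dendritic cells and lymph node stroma were read in the same way, and their part in the member values was not tested. Of 12 such genes found, 7 were tested, with 2, 2 and 0 higher and 0, 2 and 2 lower, and medians of log2 0.40, 0.045 and −0.75. Glycam1 and Chst4, of high endothelial venules, and Madcam1, an adhesion molecule of lymphoid stroma, were at 0 to 1, 0 to 3 and 0 to 3 reads per library. Cxcl13, the chemokine that draws B cells into follicles, had 6, 12 and 15 reads in Lipo-TriTE 1, 2 and 3 and 0 to 4 in the other libraries, and was too low to be tested. The list's summed level was 714 to 803 CPM for PBS, 577 to 732 CPM for Lipo-BiTE and 363 to 458.4 CPM for Lipo-TriTE libraries. Mfge8 alone stood at means of 670, 542 and 323 CPM in PBS, Lipo-BiTE and Lipo-TriTE, so the sum mainly follows this gene. Mfge8 and Ltbr were the 2 genes called lower in each Lipo-TriTE comparison. Tnfsf11 and Fut7 were the 2 called higher against PBS. Tnfsf11, with 5 reads summed over the PBS libraries, rose 25.5-fold in Lipo-BiTE and 58.6-fold in Lipo-TriTE (edgeR adjusted p = 0.000765 and 7.04e-05). Fut7 rose 4.84-fold and 8.73-fold in the same order (edgeR adjusted p = 0.0258 and 0.00293).

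Over the 9 libraries each member correlated with the mean log2 CPM of the other 8 at a Pearson r of 0.920 (Pax5) to 0.993 (Ms4a1). Outside the members, receptor segments and unnamed loci, the 10 genes of 12683 closest to the members' mean included Camp (r = 0.994), Slc14a1, Tet1, Bach2, Atp1b1, Flt3, Fcrla, S1pr1 and Tdrp (r = 0.986). Camp, a granule peptide of neutrophils, stood at means of 0.942, 2.08 and 15.4 CPM in PBS, Lipo-BiTE and Lipo-TriTE. The points share libraries and the difference between groups, so a high r says only that a gene followed the same order of libraries.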

How the data were processed

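RNA of 9 mouse tumour samples, 3 per group, was sequenced from random-primed, PCR-amplified libraries, per the labels' protocols. Each deposited value is a raw count of reads for a gene, per the file headers, and the columns hold whole numbers with unequal sums. No aligner, counter or strand setting is named: not given in the sources used here. The gene models are those of C57BL/6NJ by their identifiers, and gene lengths and positions were used as deposited. Count columns headed untreated were taken as the PBS libraries by their replicate numbers, which is an inference.

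The analysis ran in edgeR 4.0.16 under R 4.3.3: filterByExpr kept 16596 of 44806 entries (a cutoff near 0.665 CPM), libraries were scaled by TMM, and the robust quasi-likelihood F test was fitted over all 9 libraries with 1 mean per group, 6 residual and a median of 4.99 prior degrees of freedom. P-values were adjusted by Benjamini-Hochberg over all tested genes, and calls were made at an adjusted p under 0.05. Group means ± SD were taken over CPM with TMM-scaled totals, and levels of different genes are compared per kilobase of the deposited length. Unnamed loci numbered 3710 and took 1.17% to 2.14% of the counts. Correlations used log2 CPM with a prior count of 2.

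The 9 members and the 11 other gene lists were chosen with earlier results of these data known. Named genes are all members, up to 4 genes per list with the smallest p in Lipo-TriTE against Lipo-BiTE, and the 10 genes most like the members. Syk, Btk, Tcf3, Pou2af1, Tcf4, Bst2, Runx2, Tnfsf13b, Cxcl12, Il4, Xbp1, Prdm1, Fkbp11, Creld2, Cxcl13, Glycam1, Chst4, Madcam1, Rag1, Vpreb1 and Igll1 fall outside this rule and were named after their values were seen. Some genes that this rule selects are not reported here. On simulated counts the test recovered 35.1%, 37.1% and 41.7% of 2-fold and 75%, 79.2% and 80.2% of 4-fold changes for Lipo-BiTE and Lipo-TriTE each against PBS and for the treatments against each other, on 14883, 14900 and 15087 genes, with 2, 13 and 6 false calls. These changes, rises and falls, were put into a small part of the genes, all above a floor of expected reads in the second group. A larger part of the genes was called in the data, and the adjustment of p depends on that part. The rates therefore need not hold for the data. Ms4a1, Cr2 and Fcer2a lay below that floor in PBS, so the rates against PBS do not cover them. Alternatives were DESeq2 1.42.0 (size factors, and its Wald test), total counts, other filters, only the groups compared, a replicate block and leaving out each library.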

Additional observations from a re-analysis of the deposited data

How the results depend on the processing

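The count of members called higher was 2 or 3 in Lipo-BiTE against PBS and 9 in both Lipo-TriTE comparisons under all 16 alternatives, with 3 called in the DESeq2 Wald test, without Lipo-BiTE 3 and without Lipo-TriTE 1. With a replicate block the counts were 2, 9 and 9. The replicate numbers showed no sign of pairing: deviations from the group means correlated at −0.19 to 0.076 for same-numbered libraries and at −0.17 to 0.24 for the others. Of 429 alternative values of member fold changes, 421 kept their direction and side of the threshold, 4 gained a call, 1 lost it and 3 changed sign. The 3 were Pax5 in Lipo-BiTE against PBS, not called in any setting, at log2 0.041 with the replicate block, 0.18 without Lipo-BiTE 1 and 0.18 without PBS 1, the leave-one-out range being −0.32 to 0.18; the cause was not tested. Of 1056 counts over the other lists, 84 moved by more than 1.5 times or to or from 0. With only the groups compared in the fit, Ms4a1, Cr2 and Fcer2a were not tested in Lipo-BiTE against PBS, since fewer genes passed the filter. Depth limits Ms4a1, Cr2, Fcer2a and Cd79a in PBS, where each had 0 to 11 reads per library, so that their folds against PBS rest on few reads.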

Other observations

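Of 13 ligands that draw or keep B cells, 8 were tested and a part of them rose. In number, 5 rose in Lipo-BiTE against PBS, 6 for Lipo-TriTE set against PBS and 2 when the treatments were compared, with none lower. Cd40lg, the T cell ligand that activates B cells, rose 5.01-fold, 35.5-fold and 7.07-fold in these comparisons (edgeR adjusted p = 0.00386, 3.24e-05 and 0.00207), and Ltb, a lymphotoxin chain needed for lymphoid tissue, 8.87-fold, 32.2-fold and 3.63-fold (adjusted p = 0.00297, 0.000199 and 0.0412). Tnfsf13b, the survival factor BAFF, rose 2.67-fold in Lipo-TriTE against PBS (adjusted p = 0.0398) and stood at log2 0.053 between the treatments (adjusted p = 0.964). Cxcl12, a chemokine of stroma, stood at log2 −1.88 and −0.26 and Il4, a T cell cytokine, at −0.30 and −0.62 in Lipo-BiTE and Lipo-TriTE against PBS, and neither was called. The count of 2 ran from 1 to 3 over the alternatives.

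Genes of germinal centres and of immature B cells moved in part. Of 9 tested germinal centre genes 2, 5 and 2 were higher and 1, 3 and 1 lower in the same order. The shares over all tested genes were 13.8%, 18.9% and 4.88% higher and 3.22%, 14.8% and 5.21% lower. The counts were not tested against these shares. Gcsam, a protein of germinal centre B cells, rose 4.90-fold in Lipo-TriTE against Lipo-BiTE, while S1pr2 fell by 0.71 on the log2 scale (edgeR adjusted p = 0.00455 and 0.0178). Nuggc, the other gene called higher there (adjusted p = 0.0353), had 4, 1 and 63 reads summed over the PBS, Lipo-BiTE and Lipo-TriTE libraries. Nuggc could not have passed the filter on low counts without the Lipo-TriTE libraries. The 2 genes called higher became 1 in 7 alternatives, among them with any one of the 6 Lipo-BiTE and Lipo-TriTE libraries left out. The 1 called lower became 0 in 3 alternatives, among them without Lipo-BiTE 2 and without Lipo-TriTE 3. Of 4 tested genes of immature B cells 2, 4 and 1 were higher and none lower. The 2 in Lipo-BiTE against PBS were Cd93 at 3.69-fold and Erg, with 0 reads in PBS and 47 in Lipo-BiTE (edgeR adjusted p = 0.00102 and 0.00632). Dntt and Vpreb3 were not called in that comparison (adjusted p = 0.471 and 0.312). The 1 was Dntt, which adds bases to receptor joints, at 11.6-fold in Lipo-TriTE against Lipo-BiTE (edgeR adjusted p = 0.000821). There Vpreb3 was at 9.47-fold, Erg at 1.13-fold and Cd93 at 0.553-fold, none of them called (adjusted p = 0.0657, 0.913 and 0.059). In Lipo-TriTE against Lipo-BiTE 1 gene was called lower in 4 of the alternatives, among them without Lipo-BiTE 3 and without PBS 1. Rag1, the recombinase of developing lymphocytes, had 0, 0 and 40 reads summed as for Nuggc. Vpreb1 and Igll1, the surrogate light chain of precursor B cells, had 2, 0 and 0 and 0, 0 and 9 reads.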
